A study of Mus musculus with 6 samples.

Results

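The receptors described here are the C-type lectin-like receptors of the CD94/NKG2, NKR-P1 and KLRG1 groups, which natural killer (NK) cells and part of the CD8 T cells carry. The members are all probe sets that the platform annotation gives to Klrd1, Klrc1, Klrc2, Klrk1, Klre1, Klrb1a, Klrb1c, Klrb1f or Klrg1, whatever their signal. There were 12 such probe sets among 45037 on the array that are not controls, and they covered all 9 genes, of 19324 named on the array. Of the 12, 10 were annotated to 1 gene and 2 to a pair of genes, namely Klrc3 with Klrc2 and Klrb1b with Klrb1c. The signals of those 2 are given under both names and under neither gene alone. Klrb1c, which encodes NK1.1, had no probe set of its own.

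MCA-205 is a mouse fibrosarcoma line, and the 6 arrays measured RNA of CD8 T cells sorted on day 19 from tumours it had formed after implantation. The Eomes+ group held the GFP-positive cells (3 arrays) and the Eomes- group the GFP-negative cells (3 arrays) of male C57BL/6 Eomes-GFP mice, whose reporter marks expression of the T-box transcription factor Eomes. The mice behind both groups had been given aOX40 (250 ug, days 12 and 16) and aCTLA-4 (200 ug, days 12, 14 and 16), antibodies to a costimulatory and an inhibitory T cell receptor, so the comparison is between cells with and without the reporter under the same treatment. Untreated mice were not analysed here. The labels tie no array to an animal or to one of the experiments, so a p-value reflects only how far these samples spread, which may be technical in part, and precision is limited by there being 3 arrays a group.

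CD94, the product of Klrd1, pairs with an NKG2 chain and reads the non-classical MHC molecule Qa-1 on other cells: with NKG2A (Klrc1) the pair is inhibitory through tyrosine motifs in the NKG2A tail, and with NKG2C (Klrc2) it is activating through the adaptor DAP12. NKG2D (Klrk1) stands apart from that pairing, binds stress-induced ligands such as RAE-1 and H60, and signals through the adaptor DAP10. Some of the NKR-P1 receptors of the Klrb1 genes, among them NKR-P1B and NKR-P1F, bind Clr molecules, the products of Clec2 genes. The inhibitory receptor KLRG1 binds cadherins and marks effector CD8 T cells late in their differentiation.

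Values are log2 signals as deposited, differences are Eomes+ minus Eomes-, and tests are limma's moderated test (two-sided) over the 27766 probe sets that exceeded the 40th percentile of the array, here called the filter level, on 3 arrays or more. All 12 member probe sets passed this filter. Eomes, the gene sorted on, had log2 signals of 10.38, 9.86 and 8.38 on the Eomes+ arrays against 6.85, 6.89 and 5.42 on the Eomes- arrays, so the groups did not overlap. The arrays of replicate 3 had lower T cell and higher tumour signals in both groups: the mean of 15 T cell receptor and CD8 identity genes was 11.97, 11.79 and 10.72 log2 on the Eomes+ arrays against 12.12, 12.11 and 10.84 on the Eomes- arrays (array medians lay between 6.35 and 6.42), and that of 21 tumour and fibroblast genes was 8.78, 10.65 and 11.47 against 8.63, 9.76 and 11.57. In such bulk samples fewer cells of a type and less RNA per cell cannot be told apart. Over all 27766 probe sets 0 passed limma's test at an adjusted p under 0.05 (936 at an unadjusted p under 0.05), and every adjusted p given for a member below is 1.00.

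Of the 9 genes, Klrb1a stood out: its signal was 4.46-fold lower in Eomes+ cells, whereas the probe sets of single CD94/NKG2 genes were lower by less than the spread between arrays and Klrg1 was higher by about its spread. For the CD94/NKG2 genes that spread includes the lower signal of replicate 3 in both groups. With the replicate number as a block, 7 of the 12 reached an unadjusted p under 0.05 in limma's test, as did 2748 of all 27766, and 0 an adjusted one. Whether arrays of the same number are pairs is not settled here. Without the block, 0 of the 12 member probe sets passed at an adjusted p under 0.05 (0% of all probe sets tested) and 1 reached an unadjusted p under 0.05 (3.37% of all). That 1, Klrb1a, was lower in Eomes+, as 2.27% of all were at that level, and 0 did so with a higher signal, where 1.11% did. The same probe set was the 1 of 12 whose groups did not overlap with Eomes+ lower (5.14% of all probe sets) and the 1 at least 2-fold lower (1.27%). None of the 12 was at least 2-fold higher (0 of 12, against 1.03%) or lay higher without overlap (0 of 12, against 2.92%). The mean was lower in Eomes+ for 8 of the 12, against 53.4% of all probe sets, and higher for 4, against 46.5%. The median difference of the 12 was -0.52 log2, beside -0.023 over all probe sets tested. That median was -0.81 log2 without Eomes+ replicate 1, -0.94 without Eomes- replicate 3, -0.30 without Eomes- replicate 2, -0.20 without Eomes- replicate 1 and 0.00 to 2 decimals without Eomes+ replicate 3, so it rests on single arrays.

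**Figure D1:**
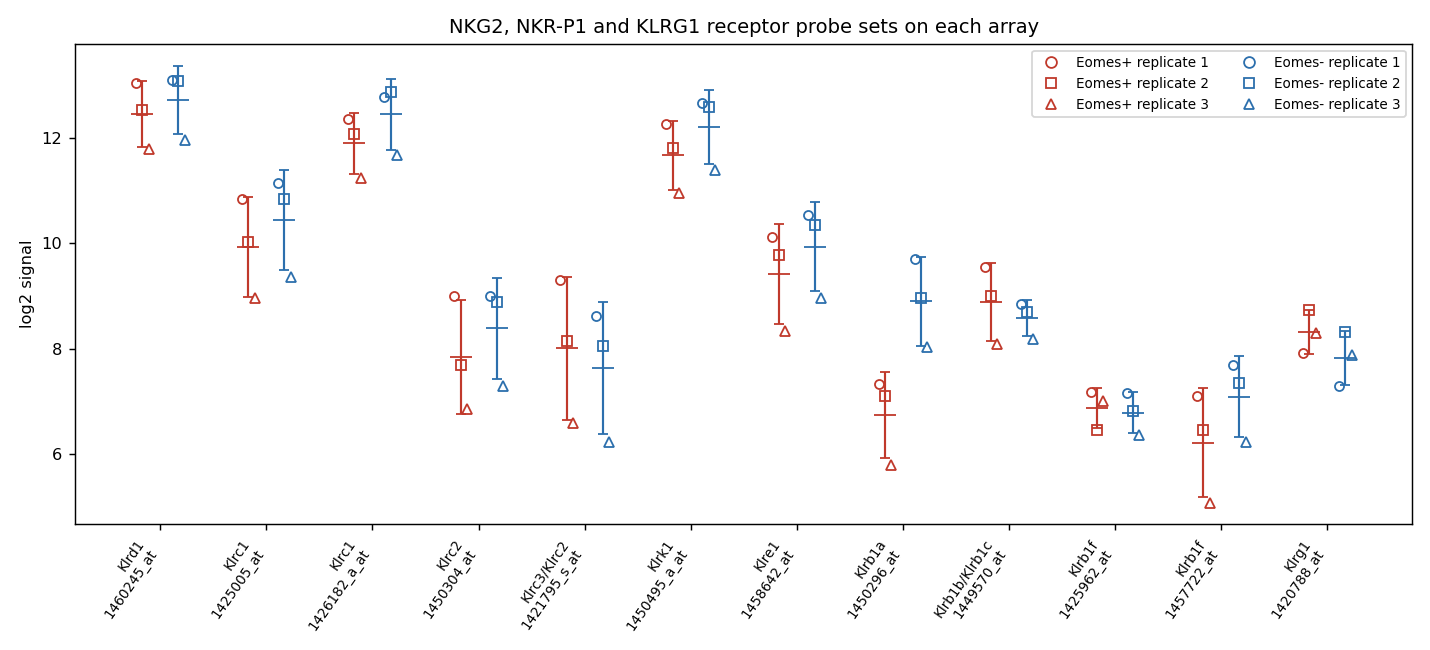
Log2 signal (vertical axis) of the 12 member probe sets (horizontal axis) on each array, Eomes+ in red left of Eomes- in blue, with symbols for the replicate numbers and bars for the mean and SD of 3 arrays. The Klrb1a groups do not overlap, with Eomes+ arrays between 5.80 and 7.33 and Eomes- arrays between 8.03 and 9.71, while the groups of every other member probe set overlap.

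Klrb1a encodes NKR-P1A, an activating receptor of the mouse NKR-P1 group. Its log2 signals were 7.33, 7.10 and 5.80 on the Eomes+ arrays against 9.71, 8.96 and 8.03 on the Eomes- arrays. Every Eomes+ array lay below every Eomes- array, with a gap of 0.70 between the groups, and within each group replicate 3 was lowest. The means were 6.74 ± 0.82 and 8.90 ± 0.84 (SD, n = 3 each), a difference of -2.16 log2 (SE 0.57, 95% confidence interval -3.51 to -0.81; limma unadjusted p = 0.00717, adjusted p = 1.00). Arrays of the same replicate number differed by -2.38, -1.87 and -2.23. An exact permutation test of this 1 probe set gave p = 0.1, the smallest that 3 against 3 allows. The difference lay between -2.59 and -1.69 over all settings tried, and it reached an adjusted p under 0.05 in none of them (limma, lowest adjusted p = 0.0633, with array weights; unadjusted p = 0.00717 on all 6 arrays).

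Klrb1c encodes NKR-P1C, the NK1.1 antigen by which NK cells of C57BL/6 mice are usually recognised, and its shared probe set did not move with Klrb1a. The Klrb1b/Klrb1c probe set gave 9.56, 9.01 and 8.09 log2 on the Eomes+ arrays against 8.85, 8.69 and 8.19 on the Eomes- arrays. The groups overlapped, with the highest and the lowest of the 6 values both on Eomes+ arrays. The means were 8.88 ± 0.74 and 8.58 ± 0.34 (SD, n = 3 each), a difference of 0.31 log2 (SE 0.42, 95% confidence interval -0.68 to 1.30; limma adjusted p = 1.00), and -0.03 without Eomes+ replicate 1. The accession listed for this probe set is the RefSeq transcript of Klrb1c. On the same array, the log2 signal of Klrb1a minus that of the Klrb1b/Klrb1c probe set was -2.22, -1.91 and -2.29 on the Eomes+ arrays against 0.87, 0.27 and -0.16 on the Eomes- arrays, so the probe sets changed unequally, by -2.47 log2. This contrast was chosen after the values were seen and is given without a test.

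Klrb1b, the inhibitory receptor NKR-P1B, is not among the 9 genes but shares that probe set. Its 5 own probe sets were all lower in Eomes+, with differences of -2.11 to -1.38 log2 and groups that did not overlap for 4 of 5. Of all probe sets tested, 5.14% lay lower without overlap. The probe set with the smallest p gave 5.56, 5.88 and 6.09 log2 on the Eomes+ arrays, 1 of them below the filter level, against 8.27, 7.80 and 7.77 on the Eomes- arrays (difference -2.11, SE 0.28; limma unadjusted p = 0.000155, adjusted p = 1.00). Probe set 1420421_s_at gave 7.51, 7.95 and 7.86 against 9.59, 9.19 and 8.68 (difference -1.38, SE 0.31). In the one whose groups overlapped, Eomes- replicate 3 at 7.75 lay below Eomes+ replicate 3 at 7.87. A further one, 1422067_at, did not reach the filter level on any Eomes+ array. The 5 probe sets share a target and are not independent measurements. Of them, 1 is of the x_at kind, which is open to cross-hybridisation with related genes, and 1420421_s_at is of the s_at kind, which can match several transcripts.

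Klrb1f encodes NKR-P1F, and its 2 probe sets disagreed. The first (1457722_at) gave 7.11, 6.46 and 5.08 log2 on the Eomes+ arrays, the last below the filter level, against 7.70, 7.35 and 6.23 on the Eomes- arrays. Its means differed by -0.88 log2 (SE 0.61), or by -1.32 without Eomes+ replicate 1 and -0.31 without Eomes+ replicate 3, and its groups overlapped. The second (1425962_at) gave 7.18, 6.45 and 7.01 against 7.16, 6.82 and 6.37, a difference of 0.09 log2 (SE 0.33), which turned to -0.06 without Eomes+ replicate 1 and -0.11 without Eomes- replicate 3. No direction is given for Klrb1f.

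Sequences are shown for Klrb1a, the member with the largest difference of the 12 probe sets, and for its neighbours Klrb1c and Klrb1b, which share a probe set. They are RefSeq promoters of GRCm38.p6, from 250 bases before to 50 after the start of the gene, 5′ to 3′ on the gene's strand. Capitals mark the RUNX letters TGTGGT and the T-box core letters GGTGT, each searched on both strands (reverse complements ACCACA and ACACC). Klrb1a lies at chr6:128622885-128623184, Klrb1c at chr6:128788592-128788891 and Klrb1b, at the first of its listed starts, at chr6:128826259-128826558, all on the minus strand.
Klrb1a: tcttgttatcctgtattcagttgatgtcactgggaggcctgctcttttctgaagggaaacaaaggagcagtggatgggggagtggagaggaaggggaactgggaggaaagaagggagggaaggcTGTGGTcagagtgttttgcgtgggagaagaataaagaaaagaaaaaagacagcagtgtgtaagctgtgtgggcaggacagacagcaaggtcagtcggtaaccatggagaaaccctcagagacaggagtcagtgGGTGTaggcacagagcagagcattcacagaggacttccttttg
Klrb1c: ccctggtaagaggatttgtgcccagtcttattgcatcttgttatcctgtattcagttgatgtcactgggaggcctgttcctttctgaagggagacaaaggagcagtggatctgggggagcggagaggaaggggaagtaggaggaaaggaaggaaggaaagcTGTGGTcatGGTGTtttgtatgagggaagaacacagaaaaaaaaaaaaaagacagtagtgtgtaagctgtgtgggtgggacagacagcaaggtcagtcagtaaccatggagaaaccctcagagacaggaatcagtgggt
Klrb1b: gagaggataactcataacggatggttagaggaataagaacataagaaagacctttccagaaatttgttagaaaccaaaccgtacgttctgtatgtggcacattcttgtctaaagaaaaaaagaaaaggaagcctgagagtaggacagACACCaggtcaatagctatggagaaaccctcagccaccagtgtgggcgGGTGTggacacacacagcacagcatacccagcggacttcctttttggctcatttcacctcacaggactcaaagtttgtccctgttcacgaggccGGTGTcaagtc
The Klrb1a and Klrb1c windows were 69.4% identical in a global alignment with gaps counted, the Klrb1f and Klrb1b windows 55.3%, and the other 26 pairs among these genes between 41.0% and 49.7%. The Klrb1a and Klrb1b windows, of genes whose own probe sets were all lower in Eomes+, were 44.8% identical, and Klrb1c has no difference of its own to set beside them. Promoters of 7 of the 9 members were in the table, and those of Klrd1 and Klrg1 were not used here. The RUNX letters were found, in the window of at least 1 listed start, for 6 of these 7 genes (Klrc1, Klrc2, Klrk1, Klre1, Klrb1a and Klrb1c), against 16.8% of all 32851 promoters, and the T-box core for 4 of 7, against 41.6%. The longer T-box letters GGTGTGA, which contain the core, were in 0 of 7, against 3.98% of all promoters. Genes are counted here over any listed start and the percentages over single windows, so these shares are not like for like. The Klrb1a and Klrb1c windows resemble each other and are no separate finds. Matches of letters are a description of these windows and say nothing about binding.

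**Figure D2:**
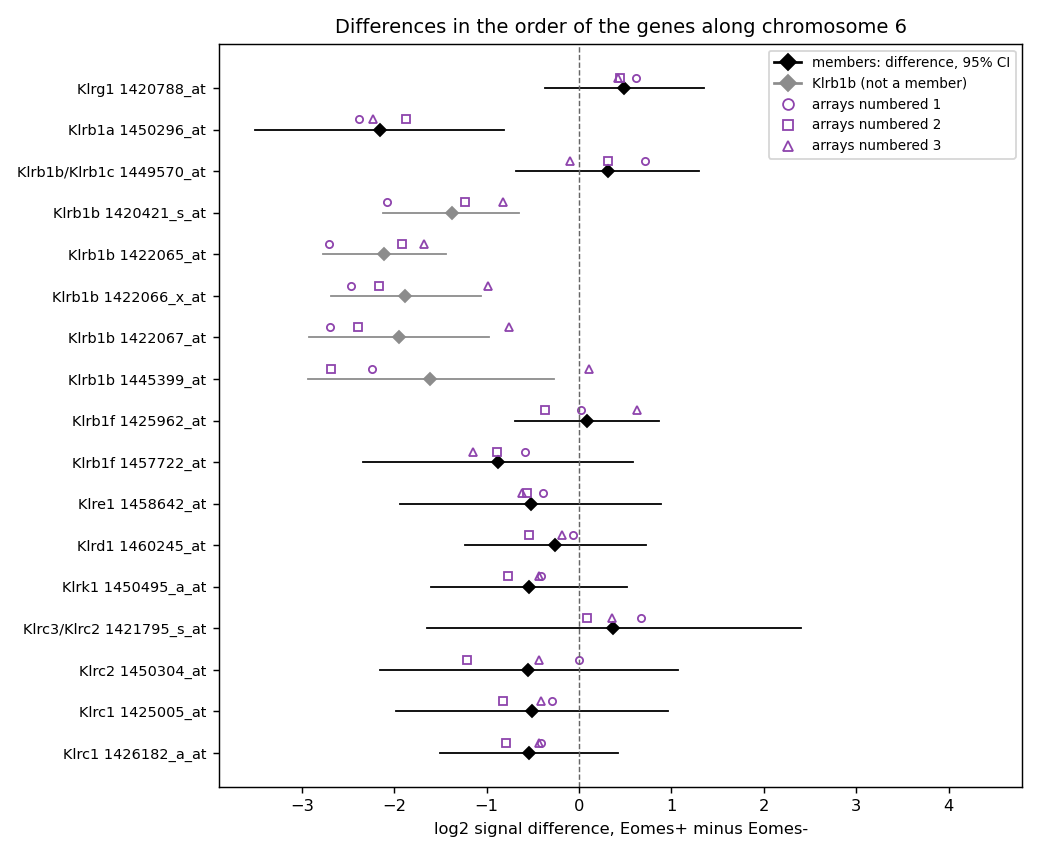
Log2 difference, Eomes+ minus Eomes- (horizontal axis), of the 12 member probe sets (black) and the 5 Klrb1b probe sets (grey), listed from top to bottom as the genes follow each other on chromosome 6, with 95% confidence intervals of the limma fit and open symbols for arrays of the same replicate number. The Klrb1b/Klrb1c probe set at 0.31 lies between Klrb1a at -2.16 and the Klrb1b probe sets. From Klre1 to Klrc1, the member probe sets annotated to 1 gene lie between -0.55 and -0.26.

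All 9 genes lie on chromosome 6 in GRCm38.p6, Klrg1 apart from the others, followed by the Klrb1 genes and then by Klre1, Klrd1, Klrk1, Klrc3, Klrc2 and Klrc1 in this order. The CD94/NKG2 group is counted here with Klre1, which encodes neither CD94 nor an NKG2 chain. In it, 6 probe sets of 5 genes had 1 gene each, and all 6 were lower in Eomes+ by 0.26 to 0.55 on the log2 scale, with an SE of 0.40 to 0.68 and limma unadjusted p between 0.22 and 0.544. Arrays of the same number also differed downwards in all 3 comparisons for each of the 6, where 17.9% of all probe sets tested did so. This counts Klrc2, whose arrays numbered 1 were equal to 2 decimals. The Klrc3/Klrc2 probe set, not among the 6, was higher in all 3. Of all 12 member probe sets 8 were lower in all 3 and 2 higher, where 17.9% and 13.3% of all probe sets were. The 6 correlated closely over the arrays and are not independent results. The groups of each of the 6 overlapped, and replicate 3 lay lowest in both groups for each. Of the 15 T cell genes 13 also had a lower mean in Eomes+ (median -0.15 log2), and 0 of the 15 reached an unadjusted p under 0.05. Among them Cd8a and Cd8b1, which encode the chains of CD8, differed by -0.58 (SE 0.36) and -0.53 (SE 0.48), and Cd3g, a chain of the T cell receptor complex, by -0.47 (SE 0.44), each lower in all 3 same-numbered comparisons.

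Klrd1 encodes CD94, the shared chain of the pairs with NKG2A and NKG2C. Its log2 signals were 13.04, 12.54 and 11.79 on the Eomes+ arrays against 13.11, 13.08 and 11.97 on the Eomes- arrays. Eomes+ replicate 1 lay just below the upper Eomes- arrays and above Eomes- replicate 3. The difference was -0.26 log2 (SE 0.41, 95% confidence interval -1.24 to 0.72; limma adjusted p = 1.00), and 0.07 without Eomes+ replicate 3.

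Klrc1 encodes the inhibitory chain NKG2A and had 2 probe sets of like difference. The probe set 1426182_a_at gave 12.37, 12.08 and 11.25 log2 on the Eomes+ arrays against 12.78, 12.88 and 11.68 on the Eomes- arrays, a difference of -0.54 (SE 0.40, 95% confidence interval -1.51 to 0.42; limma adjusted p = 1.00). The probe set 1425005_at gave 10.85, 10.03 and 8.96 against 11.14, 10.85 and 9.37, a difference of -0.51 (SE 0.62). In both, the same-numbered arrays differed most for number 2, by -0.79 and -0.82. Both values rest on single arrays: 1426182_a_at differed by -0.22 without Eomes+ replicate 3 and -0.93 without Eomes- replicate 3, and 1425005_at by -0.02 and -1.05 without the same arrays.

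Klrc2 encodes the activating chain NKG2C. Its own probe set gave 9.0, 7.69 and 6.86 log2 on the Eomes+ arrays against 9.0, 8.89 and 7.29 on the Eomes- arrays, a difference of -0.55 (SE 0.68), which ran from -1.12 (without Eomes+ replicate 1) to -0.05 (without Eomes+ replicate 3) as single arrays were left out. The arrays numbered 1 were equal to 2 decimals, and number 2 differed by -1.21. The Klrc3/Klrc2 probe set, whose listed accession is the Klrc3 transcript, differed in the other direction, at 9.30, 8.15 and 6.59 against 8.63, 8.06 and 6.23 (difference 0.37, SE 0.85), but it turned to -0.27 without Eomes+ replicate 1 and to -0.33 without Eomes- replicate 3. The Klrc3 probe set did not pass the filter, so NKG2C and its close relative NKG2E, the product of Klrc3, could not be separated by a test.

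Klrk1 encodes NKG2D. It gave 12.26, 11.81 and 10.95 log2 on the Eomes+ arrays against 12.67, 12.58 and 11.39 on the Eomes- arrays. Each Eomes+ array was below the Eomes- array of its number, by 0.41, 0.77 and 0.43, but Eomes- replicate 3 lay below Eomes+ replicates 1 and 2. The difference was -0.54 log2 (SE 0.44, 95% confidence interval -1.60 to 0.52; limma adjusted p = 1.00), and ran from -0.95 without Eomes- replicate 3 to -0.18 without Eomes+ replicate 3, with -0.83 without Eomes+ replicate 1, -0.31 without Eomes- replicate 1 and -0.35 without Eomes- replicate 2.

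Klre1 encodes a receptor that in mice pairs with the products of Klri1 and Klri2. Its signals were 10.13, 9.78 and 8.34 log2 on the Eomes+ arrays against 10.53, 10.34 and 8.96 on the Eomes- arrays, a difference of -0.52 (SE 0.59), which was 0.01 without Eomes+ replicate 3.

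The CD94/NKG2 probe sets of 1 gene, Klre1 included, followed each other and the T cell genes from array to array. Pearson correlations over the 6 arrays lay between 0.942 and 0.993 for the 15 pairs of these 6 probe sets, and between 0.920 and 0.979 with the mean of the 15 T cell genes, where all share the lower signal of T cell genes on replicate 3. The correlation with the T cell mean was 0.637 for Klrb1a and -0.161 for Klrg1. Taken relative to the T cell mean of the same array, the range of Klrd1 over the 6 arrays narrowed to 0.39 log2, against 1.32 before, and that of Klrk1 to 0.54, against 1.71. On that scale Klrk1 lay at 0.29, 0.01 and 0.23 log2 on the Eomes+ arrays against 0.55, 0.46 and 0.55 on the Eomes- arrays, and Klrc1 1426182_a_at at 0.40, 0.29 and 0.53 against 0.67, 0.76 and 0.85, so both were lower in Eomes+ without overlap. Their log2 signals correlated at 0.993 over the 6 arrays, so they are not independent results. Klrd1 overlapped, at 1.07, 0.74 and 1.07 against 0.99, 0.96 and 1.13. The other Klrc1 probe set, 1425005_at, also overlapped, at -1.12, -1.77 and -1.76 against -0.98, -1.26 and -1.47. Separation on this scale was thus not shared by both Klrc1 probe sets. Klrc2, by its own probe set, and Klre1 overlapped too. In all, 4 of 12 member probe sets lay lower without overlap on this scale, where 1.1% of all probe sets did. Before the centring 1 of 12 did, where 5.14% of all did. The centring shifts differences upwards and narrows the range mainly of probe sets that follow the T cell genes. The 1.1% is therefore no like background for these members. The 4 were Klrk1, Klrc1 1426182_a_at, Klrb1a and Klrb1f 1457722_at. The Klrb1f probe set was below the filter level on Eomes+ replicate 3. The other Klrb1f probe set, 1425962_at, overlapped on this scale with a difference of 0.29, so no direction is given for this gene here either. On the same scale 0 lay higher without overlap, where 2.39% did. The differences on this scale were -0.34 for Klrk1, -0.35 for Klrc1 1426182_a_at and -1.96 for Klrb1a, beside a median of 0.172 over all probe sets, which this centring shifts upwards, and limma called 0 of all probe sets at an adjusted p under 0.05 (207 at an unadjusted p under 0.05).

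**Figure D3:**
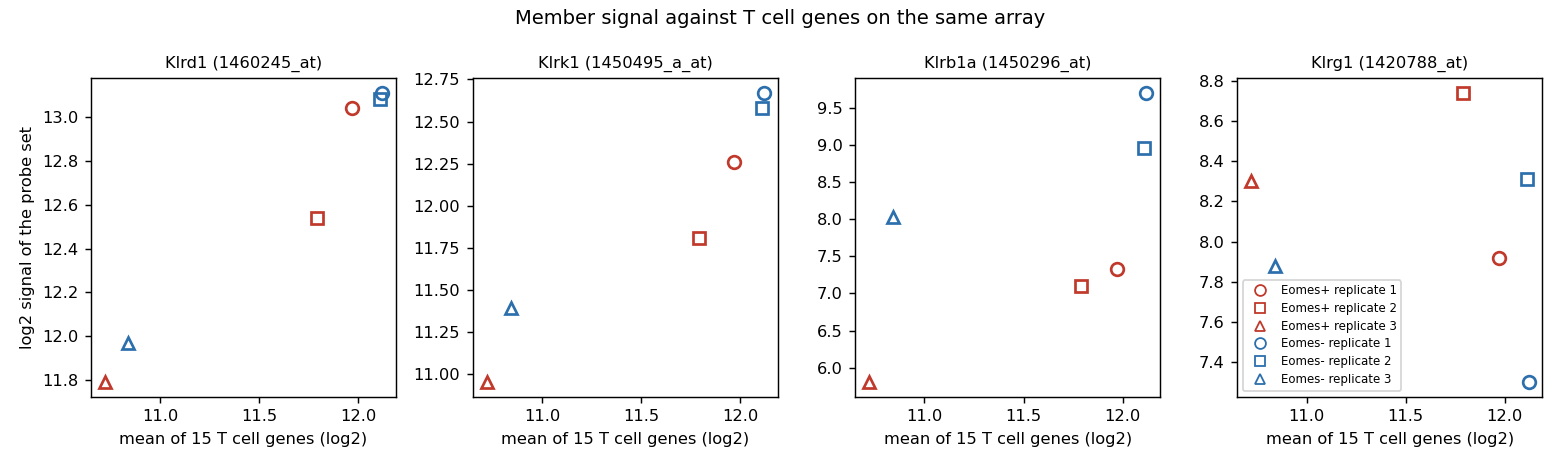
Log2 signal of Klrd1, Klrk1, Klrb1a and Klrg1 (vertical axes, each with its own range) against the mean log2 signal of 15 T cell genes on the same array (horizontal axis), Eomes+ in red and Eomes- in blue, with a symbol for each replicate number. Klrd1 and Klrk1 follow the T cell mean over the 6 arrays, the Eomes+ arrays of Klrb1a lie below its Eomes- arrays at a similar T cell mean, and Klrg1 does not follow it.

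Klrg1 encodes KLRG1. Its log2 signals were 7.92, 8.74 and 8.30 on the Eomes+ arrays against 7.30, 8.31 and 7.88 on the Eomes- arrays. Each Eomes+ array was above the Eomes- array of its number, by 0.62, 0.44 and 0.42, as for 13.3% of all probe sets, but the groups overlapped, with Eomes+ replicate 1 below Eomes- replicate 2. The means were 8.32 ± 0.41 and 7.83 ± 0.51 (SD, n = 3 each), a difference of 0.49 log2 (SE 0.36, 95% confidence interval -0.37 to 1.35; limma adjusted p = 1.00). The difference lay between 0.23 (without Eomes- replicate 1) and 0.73 over all settings tried, and was 0.28 without Eomes+ replicate 2. Unlike the CD94/NKG2 genes it was not lowest on replicate 3 in either group: replicate 1 was lowest in both. On the same array, Klrg1 minus Klrk1 was -4.34, -3.07 and -2.66 on the Eomes+ arrays against -5.37, -4.27 and -3.51 on the Eomes- arrays, an unequal change of 1.03 log2 with groups that still overlapped, chosen after the values were seen and not tested.

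Among adaptors and signalling partners, 24 of 26 listed genes were tested and 0 reached an unadjusted p under 0.05 in either direction, where 1.94% of genes with 1 probe set each were lower and 1.19% higher at that level. Their median was -0.07 log2, beside -0.016 over all genes. Of the listed genes the smallest p belonged to Crk (0.43, SE 0.31), an SH2-SH3 adaptor, Pik3r1 (-0.57, SE 0.47), the regulatory subunit of phosphoinositide 3-kinase, Sh3bp2 (-0.28, SE 0.27) and Grb2 (-0.24, SE 0.23). Hcst, which encodes the NKG2D adaptor DAP10, gave 11.10, 11.43 and 10.04 log2 on the Eomes+ arrays against 11.26, 11.77 and 10.43 on the Eomes- arrays (difference -0.30, SE 0.46), with groups that overlapped. Tyrobp (DAP12) was highest on replicate 3 in both groups, at 10.00, 11.20 and 12.03 against 9.60, 10.62 and 11.92, and thus ran with the tumour and myeloid genes rather than with the T cell genes.

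Of 14 listed ligand genes 6 had a probe set of their own and 5 were tested, 0 of them at an unadjusted p under 0.05. Cdh1, which encodes E-cadherin, a ligand of KLRG1, gave 9.95, 9.30 and 8.52 log2 on the Eomes+ arrays against 9.20, 9.06 and 7.44 on the Eomes- arrays (difference 0.69, SE 0.57). Each Eomes+ array was above the Eomes- array of its number and the groups overlapped. Cdh2 differed by 1.30 (SE 0.85) with 1 Eomes+ and 2 Eomes- arrays below the filter level, H2-D1 by -0.10 (SE 0.12) and Ulbp1, which encodes the NKG2D ligand MULT1, by -0.21 (SE 0.41). Of 13 other lectin-like receptor and Clr genes 8 had a probe set of their own and 5 were tested. Klrb1b was lower at an unadjusted p under 0.05 (1 of 5, against 1.94% of all genes) and 0 were higher (against 1.19%). Clec2d, whose product Clr-b is the ligand of NKR-P1B, differed by 0.12 log2 (SE 0.22), Clec2i, whose product Clr-g is bound by NKR-P1F, by 0.46 (SE 0.46), and Clec2h by 0.30 (SE 0.27).

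Of 18 regulators linked to NK receptor or effector genes 16 were tested, with a median of -0.11 log2. At an unadjusted p under 0.05, 1 was higher and 1 lower, where 1.19% of genes with 1 probe set each were higher and 1.94% lower. The higher one was Eomes (3.15, SE 0.63), the gene sorted on, so its direction was set by the sort and is no result of this list. The lower one was Nfil3, a factor needed for NK cell development, at 10.44, 10.40 and 10.35 log2 on the Eomes+ arrays against 11.03, 11.03 and 10.62 on the Eomes- arrays (difference -0.50, SE 0.18; limma unadjusted p = 0.027, adjusted p = 1.00), with groups that did not overlap. Prdm1, which encodes Blimp-1, also lay lower without overlap (-0.71, SE 0.31), so 2 of the 16 did, against 5.14% of all probe sets tested. Id2 differed by -0.68 (SE 0.46).

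Markers of other cells that carry these receptors were examined beside the members. Of 15 NK cell markers 14 had a probe set of their own and 11 were tested, and the mean of the 11 lay between 9.11 and 9.14 log2 on the Eomes+ arrays against 9.0 and 9.38 on the Eomes- arrays. This mean joins genes with opposite runs over the replicate numbers and is no measure of NK cell RNA. Nkg7 gave 13.01, 12.75 and 11.69 on the Eomes+ arrays against 13.08, 13.22 and 12.08, while Itgam gave 5.73, 7.51 and 9.28 against 5.64, 7.05 and 8.25. Ncr1, which encodes the NK receptor NKp46, was below the filter level on all arrays, at 3.76, 5.18 and 5.68 log2 on the Eomes+ arrays against 4.04, 4.29 and 4.78 on the Eomes- arrays. Klra1 was below it on all arrays as well, and Klra8 on all but Eomes- replicate 3. Of the 11, Styk1 was lower (-1.35, SE 0.48) and S1pr5 higher (1.11, SE 0.42, with 2 Eomes- arrays below the filter level) at an unadjusted p under 0.05. Of all genes 1.94% were lower and 1.19% higher at that level. Of 14 markers of gamma-delta and innate-like T cells 6 had a probe set of their own and 3 were tested, with means of 7.57 to 8.75 log2 on the Eomes+ arrays against 7.01 to 7.68 on the Eomes- arrays. Cd163l1, a scavenger receptor gene of gamma-delta T cells, was higher without overlap, at 8.93, 7.75 and 7.19 against 6.17, 5.94 and 5.84. It was the 1 of 3 that was, against 2.92% of all probe sets. The groups of the other tested genes of this list overlapped: Trgv4 differed by 0.74 (SE 0.59) and Zbtb16 by -0.05 (SE 0.22). Sox13, Blk and Il17a did not pass the filter. The part of such cells in the members' differences was not tested. Among 11 markers of CD4 and regulatory T cells 10 had a lower mean in Eomes+, against 53.4% of all probe sets (median -0.77 log2). Their list means were 8.13 to 8.73 log2 against 8.61 to 9.55. Of the 11, 2 were lower at an unadjusted p under 0.05 (1.94% of all genes) and 0 higher (1.19%). These were Capg (-0.77, SE 0.17) and Cd40lg (-1.70, SE 0.46, with all 3 Eomes+ arrays below the filter level). Both lay lower without overlap, as did 5.14% of all probe sets. All 21 tested tumour and fibroblast markers had a higher mean, against 46.5% of all probe sets (median 0.29 log2, none at an unadjusted p under 0.05). Of 21 tested macrophage and monocyte markers 17 had a higher mean (median 0.27 log2, none at that level), with Mrc1 at 1.33 (SE 0.91) and Csf1r at 0.83 (SE 0.97). The 3′ to 5′ signal ratio of the Gapdh control probe sets, a sign of RNA quality, was 1.88, 1.77 and 1.55 log2 on the Eomes+ arrays against 1.54, 1.07 and 1.11 on the Eomes- arrays (p = 0.1 in an exact two-sided permutation test, which can go no lower). That of the Actb control probe sets was 0.08, 0.17 and 0.13 log2 on the Eomes+ arrays against 0.00, 0.05 and 0.11 on the Eomes- arrays, with groups that overlapped (p = 0.2 in the same exact test). The part of RNA quality in the members' differences was not tested. With a covariate for other cells' RNA, taken from tumour and macrophage markers, Klrb1a differed by -1.98 log2, and the members' median was -0.30, against -0.52 without it. The other values that it moved by over 1.5 times were those of Klrd1 (-0.12), Klrc1 1425005_at (-0.29), Klrc2 (-0.31), Klre1 (-0.33), Klrc3/Klrc2 (0.67) and Klrb1f 1425962_at (0.16).

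The genes whose 6 log2 values were most like those of a member were found among 12571 genes with 1 probe set each, by Pearson's r over the 6 arrays, which share the T cell gradient between replicate numbers. For Klrb1a they were Traf2 (r = 0.993), an adaptor of TNF receptors, and Arid3a (0.991), whose differences of -0.84 and -0.26 log2 were smaller than that of Klrb1a. For Klrg1 they were Rabggta (0.985) and Fbxo33 (0.978). For Klrd1 they were Pnrc1 (1.00) and Esco1 (0.999), for Klrc1 Mdm4 (0.999) and Atxn1 (0.998), for Klrk1 Dnajc9 (0.999) and the granule-fusion gene Stx11 (0.998), for Klre1 Ggct (0.998) and the T cell adaptor gene Sh2d2a (0.996), and for Klrc2 Fam124b (0.995) and Mindy2 (0.994). For Klrb1f 1425962_at they were Smtnl1 (0.983) and Phf1 (0.980). With so many genes and so few arrays, high values of r are easily reached, so these names are a description only.

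**Figure D4:**
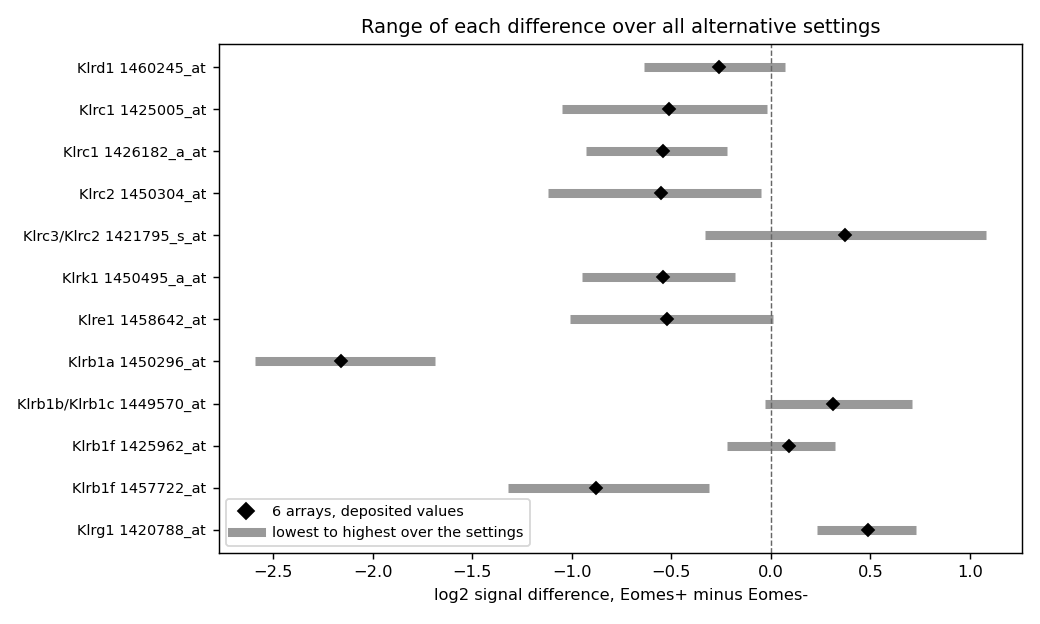
Log2 difference, Eomes+ minus Eomes- (horizontal axis), of each member probe set on all 6 arrays (diamonds) and its lowest to highest value over all alternative settings, arrays left out included (grey bars). The bar of Klrb1a spans -2.59 to -1.69, clear of 0 and of the bars of the other members, and the bars of Klrd1, Klre1, Klrc3/Klrc2, Klrb1b/Klrb1c and Klrb1f 1425962_at cross 0.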

How the data were processed

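RNA of 3 Eomes+ and 3 Eomes- samples, grouped by the sample titles, was hybridised to arrays with biotin labelling, per the labels. The authors deposited log2 values for 45101 probe sets. Per the submitters' processing notes, the tools include MAS5 and Transcriptome Analysis Console; which of them summarised the probes is not stated there, and the log2 scale was read from the values. Array medians lay between 6.35 and 6.42, so a shift common to most genes would have been removed before deposit. Control probe sets (64) were left out. The platform annotation gives 1 gene symbol for 34945 of the rest, several for 932 and none for 9160, and symbols were updated through a RefSeq table of GRCm38.p6 (34741 found).

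The fit was limma 3.58.1 in R 4.3.3 (lmFit, eBayes with an intensity trend), Eomes+ minus Eomes-, with Benjamini-Hochberg adjustment over 27766 probe sets and a threshold of 0.05. It was tested on simulated data. Single values were compared by exact permutation. For lists, the brightest probe set past the filter stood for each of 12571 genes. Named genes were all members, Eomes, up to 4 genes of smallest p per list of related genes and the 2 genes most like each member. Klrb1b's other probe sets, Hcst, Tyrobp and the markers named with their values were added after the values were seen. The members and lists were chosen with earlier results of these data known. Alternatives were a replicate block, arrays left out, other filters, scalings, a pseudocount of 32, variance models, array weights, 1 probe set a gene and a covariate for other cells' RNA. The replicate number was not a block, since no label ties it to an experiment and the deviations of arrays numbered 2 correlated at 0.0989, under the limit set for pairing. The arrays numbered 1 and 3 gave 0.595 and 0.628. These are deviations from a mean of 3 arrays a group, so the low value for number 2 does not show that the arrays are unpaired. Whether arrays of the same number are pairs is therefore not settled here. No coordinates of probe sets are given because the table names no build.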

Additional observations from a re-analysis of the deposited data

How the results depend on the processing

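The number of probe sets past the threshold was 0 under every setting except array weights (74) and centring on T cell genes with replicate block (8, chosen after seeing the data), and 0 member probe sets passed under any setting, where 0 had passed. With arrays left out the number stayed at 0, and the members' median difference ranged from -0.94 log2 (without Eomes- replicate 3) to 0.00 (without Eomes+ replicate 3). With the replicate block the number past the threshold stayed at 0 and the median at -0.52 log2, but 2748 probe sets, against 936, and 7 member probe sets, against 1, reached an unadjusted p under 0.05. The 7 were those of Klrd1, Klrk1, Klre1 and Klrb1a, both of Klrc1 and Klrb1f 1457722_at. Klrb1a had a limma adjusted p of 0.084 with the block. The deviations of Eomes- replicate 2 correlated better with Eomes+ replicate 1 (0.302) than with Eomes+ replicate 2. Over 259 values of single member probe sets under the alternatives, 250 kept direction and side of the threshold and 9 turned: Klrc3/Klrc2 (-0.27 without Eomes+ replicate 1, -0.33 without Eomes- replicate 3), Klrb1b/Klrb1c (-0.03 without Eomes+ replicate 1), Klrd1 (0.07) and Klre1 (0.01) without Eomes+ replicate 3, and Klrb1f 1425962_at (-0.06 without Eomes+ replicate 1, -0.11 without Eomes- replicate 3, -0.18 without replicate 3 in both groups, -0.22 with array weights). The cause was not tested. With single arrays left out, Klrc3/Klrc2 ranged from -0.33 to 1.08, Klrb1b/Klrb1c from -0.03 to 0.71, Klrd1 from -0.64 to 0.07, Klre1 from -1.01 to 0.01 and Klrb1f 1425962_at from -0.11 to 0.30. The counts at an unadjusted p under 0.05 were 2418 with the covariate for other cells' RNA, 6270 with array weights, 3687 with T cell centring and the block together and 207 with T cell centring alone. Without replicate 2 in both groups that count was 292, and without replicate 3 in both 1806. The filter at the 60th percentile left out Klrb1f 1425962_at. Signals near the filter level, as in Klrb1f, limit what can be said of dim probe sets.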
